A study of Mus musculus with 6 samples.

Results

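The MAGE genes (melanoma antigen genes) were examined in MB49 cells, an established line of male mouse bladder cancer, with and without a CRISPR edit of the Y chromosome. The genes were chosen by name alone: every protein-coding gene whose symbol starts with Mage followed by a, b, d, e, f, g, h or l. This gave 21 genes of the 54532 in the count table, of which 22046 were protein-coding. Type a had 8 of them, type b 7, type d 2, type e 2, type h 1 and type l 1, while types f and g had 0. Another 9 MAGE-named genes were annotated as pseudogenes and were not members.

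Both groups came from Y-positive MB49 cells. The Y-KO group carries a CRISPR knockout of Y, with a guide that the sources used here do not name, and the Y-Scr group received a guide RNA with no target. Per the labels' protocols, the cells were sorted after transduction on a red fluorescent protein (tRFP) and grown up as single-cell clones. Each group had 3 libraries of poly-A RNA, and all 6 were labelled batch 1. A tissue label calls the samples a tumor. The labels do not say whether the replicates were separate cultures or clones, so p-values measure only the spread between these libraries, which may be technical, and a difference between clones and an effect of losing Y cannot be told apart. The comparison asks which MAGE genes differ between Y-KO and Y-Scr cells, and whether the germline-restricted types a and b differ from the broadly expressed types.

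MAGE proteins share a MAGE homology domain, and many bind RING-type E3 ubiquitin ligases and alter which proteins these mark for degradation. Genes of types a and b, the type I genes, lie mostly on the X chromosome, are normally expressed in male germ cells and are silent in most adult tissues. DNA methylation of the promoter is a known part of that silencing, and these genes become active again in many tumors, which is why they are called cancer-germline or cancer-testis antigens. The type II genes (types d, e, f, g, h and l) are expressed in many adult tissues. Of the 21 members, 19 lay on X, Mageb3 on chromosome 2 and Magel2 on chromosome 7.

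The type a genes are near-copies of each other, which limits how reads can be assigned to them. The first 90 bases of the coding sequence are shown for the 6 closest copies because the main type a results concern Magea8 and Magea3. They were read from the GENCODE transcripts of GRCm38, 5′ to 3′, and capitals mark each base that differs from Magea8.
Magea8: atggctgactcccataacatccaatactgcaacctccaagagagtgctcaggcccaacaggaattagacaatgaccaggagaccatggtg
Magea3: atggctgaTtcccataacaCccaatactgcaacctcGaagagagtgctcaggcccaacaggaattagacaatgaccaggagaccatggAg
Magea6: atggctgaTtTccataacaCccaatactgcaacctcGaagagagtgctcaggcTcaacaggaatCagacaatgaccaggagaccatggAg
Magea5: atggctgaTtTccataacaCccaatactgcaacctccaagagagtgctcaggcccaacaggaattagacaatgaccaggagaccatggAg
Magea2: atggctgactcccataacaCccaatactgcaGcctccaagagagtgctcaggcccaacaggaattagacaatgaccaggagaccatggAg
Magea1: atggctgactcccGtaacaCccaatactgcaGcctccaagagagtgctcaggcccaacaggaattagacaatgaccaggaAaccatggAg
In this stretch Magea3 differed from Magea8 at 4 bases, Magea6 at 7, Magea5 at 4, Magea2 at 3 and Magea1 at 5. Over the aligned coding sequence, Magea3 and Magea8 were identical at 932 of 960 bases (97.1%), and Magea3 and Magea6 at 96.8%. Of all 50-base stretches in the Magea8 transcripts, 41.5% also occurred in transcripts of another gene, and for 100-base stretches the share was 21.4%. For Magea3 these shares were 54.0% and 22.6%, and for Mageb2, which resembles Mageb1, 72.4% and 61.1%. The sources used here give neither the read length nor the treatment of reads that match several genes. Counts of the type a genes, Mageb1 and Mageb2 are therefore uncertain in how reads were split among copies or left out. The transcripts of Maged1, Magee1, Magel2 and Magea10 shared 0% of their 50-base stretches with other genes.

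The libraries held between 15698510 and 24633158 counts, so 3 counts corresponded to 0.122 to 0.191 CPM (a gene's counts scaled to a common library total), on the raw library totals. The 4 listed Y genes (Ddx3y, Eif2s3y, Kdm5d and Uty) held 6747, 7119 and 8860 counts in the Y-Scr libraries and 0, 0 and 0 in the Y-KO libraries. Against a floor of 3 counts over the Y-KO group, each was at least 1022-fold lower. Of 13 urothelial and epithelial markers, Cdh1, Epcam and Upk3a were at 0 counts in all libraries, and the list summed to 3365 to 3734 CPM in Y-Scr and 4031 to 4334 CPM in Y-KO, nearly all of it Krt8 and Krt18. Of its tested genes, Krt19 and Krt8 were called higher (log2 fold changes 2.37 and 0.36) and Gata3 lower (-1.48). Of 10 leukocyte markers 7 were at 0, including Ptprc, and the list summed to 106 to 114 CPM against 94.8 to 99.98 CPM, nearly all of it Cd68. The 8 fibroblast and mesenchymal markers summed to 4591 to 5179 CPM in Y-Scr and 5149 to 5416 CPM in Y-KO, nearly all of it Vim, with Pdgfrb at 0. Germ cell markers were near 0: 6 of 8 (Dazl, Sycp3, Prm2, Tnp1, Acrv1 and Zbtb16) had no count, and the list summed to 0 to 0.167 CPM in Y-Scr and 0.0537 to 0.187 CPM in Y-KO. In bulk RNA, fewer expressing cells and less RNA per cell cannot be told apart, and this holds for every result here.

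Of the 21 members, 10 had at least 1 count in any library and 5 passed the low-count filter, which asked for 0.582 CPM in 3 libraries. All 5 differed between the groups by edgeR's quasi-likelihood test with Benjamini-Hochberg adjustment, at an adjusted p under 0.05. This has to be read against a background in which 43.6% of the 12907 tested genes were called, 20.7% higher and 23.0% lower in Y-KO. Among types a and b, Magea3 was higher and Magea8 and Mageb2 were lower. Of types d, e, h and l, Maged1 and Magee1 were higher. Only Maged1 reached the filter level in all 6 libraries: Magea8 and Mageb2 passed through the Y-Scr libraries alone, and Magea3 and Magee1 through the Y-KO libraries alone, so these 4 had to differ to be tested. All 5 had no overlap between the groups, as did 52.9% of all tested genes.

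**Figure D1:**
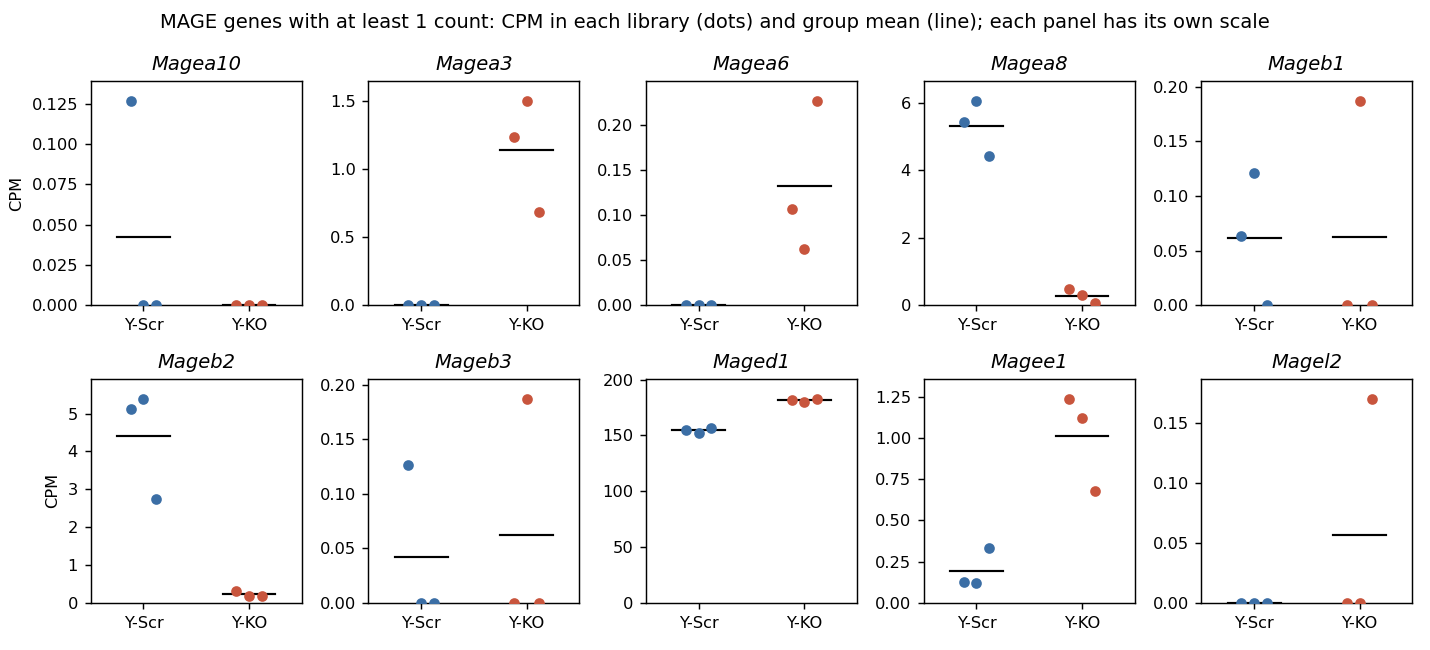
CPM of the 10 MAGE genes with at least 1 count, in 3 Y-Scr and 3 Y-KO libraries; dots are libraries, lines are group means, and each panel has its own vertical scale. Magea8 and Mageb2 fall from means of 5.31 and 4.42 CPM to 0.284 and 0.226 CPM, Magea3 appears at 0.680 to 1.49 CPM, and Maged1 moves from 155 to 181 CPM.

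Magea8, a gene of the type a cluster on X, fell in Y-KO. It is ENSMUSG00000079350, on the minus strand of chromosome X from 154985775 to 154995850 (GRCm38), and held 86, 100 and 106 counts in the Y-Scr libraries against 9, 5 and 1 in the Y-KO libraries. These were 5.44, 6.05 and 4.43 CPM, and 0.483, 0.311 and 0.0566 CPM. Every Y-Scr library stood far above every Y-KO library. Mean levels were 5.31 ± 0.819 CPM (SD, n = 3) and 0.284 ± 0.215 CPM (SD, n = 3), so 5.35% of the Y-Scr level remained. The fitted log2 fold change was -4.17 ± 0.40 (SE), an 18.1-fold fall, with an adjusted p of 1.0e-07 in edgeR's quasi-likelihood test. The ratio of summed counts had an exact 95% interval of 10.8 to 32.8, which covers counting error only. With 1 library left out, the log2 fold change ranged from -4.83 (without Y-KO replicate 1) to -3.69 (without Y-KO replicate 3). Of all tested genes, 51 (0.395%) had a log2 fold change of -4 or lower, a bound close to the value of Magea8 itself.

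Mageb2, a type b gene some distance from the type a cluster, fell to a like extent. It is ENSMUSG00000073069, on the plus strand of chromosome X from 91331690 to 91333360, and held 81, 89 and 66 counts in Y-Scr against 6, 3 and 3 in Y-KO. This gave 5.13, 5.38 and 2.76 CPM against 0.322, 0.187 and 0.170 CPM. The groups did not overlap, although Y-Scr replicate 3, the deepest library, stood well below the other Y-Scr libraries. The mean went from 4.42 ± 1.45 CPM (SD, n = 3) to 0.226 ± 0.0835 CPM (SD, n = 3). The log2 fold change was -4.22 ± 0.43 (SE), an 18.6-fold fall, with an adjusted p of 2.3e-07 by edgeR's quasi-likelihood test. Among the tested genes ordered from the lowest log2 fold change, Mageb2 was number 48 and Magea8 number 49.

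Magea3 went the other way. The gene (ENSMUSG00000094196, chromosome X, 154948543 to 154949505, minus strand) had no count in any Y-Scr library and 23, 24 and 12 counts in the Y-KO libraries, which are 1.24, 1.49 and 0.680 CPM. Every Y-KO library therefore held Magea3 reads and no Y-Scr library did. Against a floor of 3 counts over the Y-Scr group, the gene was at least 21.1-fold higher in Y-KO, with an adjusted p of 4.5e-05 by edgeR's quasi-likelihood test. Magea6 (ENSMUSG00000063728, chromosome X, 154924012 to 154935987), its neighbour in the cluster, held 0, 0 and 0 counts in Y-Scr against 2, 1 and 4 in Y-KO. That is at least 2.51-fold, below the filter, and with no filter edgeR's quasi-likelihood test gave an adjusted p of 0.142.

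The make-up of the type a reads thus changed along with their sum. In the Y-Scr libraries Magea8 held 86 of 88, 100 of 100 and 106 of 106 type a counts. In the Y-KO libraries it held 9 of 34 (26.5%, exact 95% interval 12.9 to 44.4%), 5 of 30 (16.7%, 5.64 to 34.7%) and 1 of 17 (5.88%, 0.149 to 28.7%). Magea3 held 23 of 34, 24 of 30 and 12 of 17 there, together 59 of 81 (72.8%, 61.8 to 82.1%). In Y-Scr it held 0 of 294, with an exact 95% upper limit of 1.25%. In all 3 Y-KO libraries Magea3 was the leading type a gene, and in all 3 Y-Scr libraries Magea8 was. Of the 50-base stretches of the annotated Magea3 transcript, 35.7% also occur in Magea8. The annotated Magea3 gene is 963 bases long and its coding sequence 960, so almost no untranslated sequence enters this share. The part that shared reads play in these shares was not tested.

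**Figure D2:**
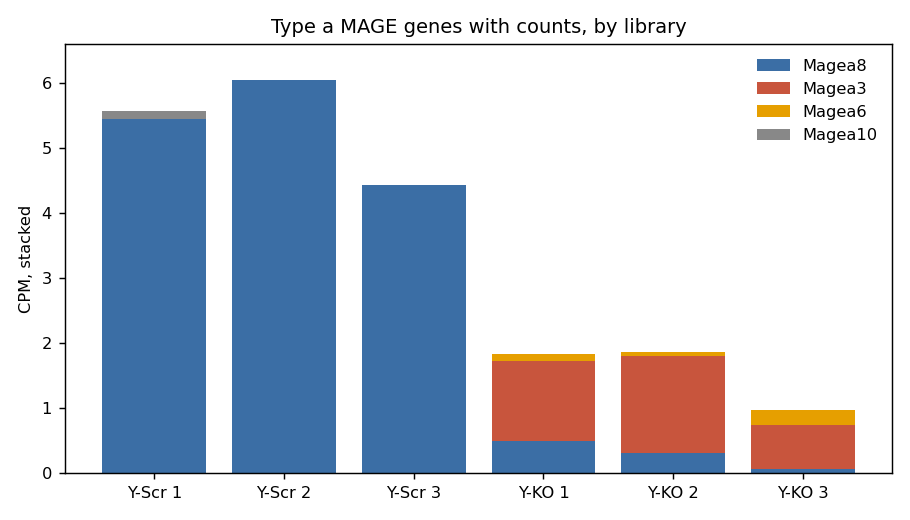
Stacked CPM of the 4 type a genes with counts (Magea8, Magea3, Magea6 and Magea10) in each of the 6 libraries. The Y-Scr bars are Magea8 apart from 2 Magea10 counts in replicate 1, while the Y-KO bars are lower and mostly Magea3.

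Summed over types a and b, the level was 10.9, 11.6 and 7.18 CPM in the Y-Scr libraries and 2.15, 2.43 and 1.13 CPM in the Y-KO libraries. The mean fell from 9.87 ± 2.35 to 1.90 ± 0.681 CPM (SD, n = 3), which is 19.3% of the Y-Scr level, and the libraries did not overlap. No test is given for this sum. Magea8 and Mageb2 made up 528 of the 535 type a and b counts in Y-Scr (98.7%) and 27 of 99 in Y-KO (27.3%). The sum therefore follows these 2 genes in Y-Scr and mainly Magea3 in Y-KO. Type a fell from 294 to 81 counts and type b from 241 to 18.

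The other members of types a and b were at or near 0. Magea10 (ENSMUSG00000043453) had 2, 0 and 0 counts in Y-Scr, with none in Y-KO. Mageb1 (ENSMUSG00000062162), the gene most like Mageb2, had 1, 2 and 0 counts against 0, 3 and 0. Mageb3 (ENSMUSG00000074881), the autosomal member, had 2, 0 and 0 against 0, 3 and 0, and it overlaps Ctdspl2 on the opposite strand, which held 3417 and 2904 counts in Y-Scr and Y-KO. No difference in these 3 was detectable at this depth. A further 4 type a genes (Magea1, Magea2, Magea4 and Magea5) and 4 type b genes (Mageb4, Mageb5, Mageb16 and Mageb18) had 0 counts in all 6 libraries. In the annotation Magea2 overlaps Magea1 and Magea5 on the same strand, and the sources used here do not say how reads there were assigned.

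Among the broadly expressed types, Maged1 was the most abundant member and rose slightly in Y-KO. Maged1 encodes an adapter protein, also known as NRAGE, that binds the neurotrophin receptor p75 and takes part in apoptosis and differentiation signals. The gene (ENSMUSG00000025151, chromosome X, 94535474 to 94542143, minus strand) held 2447, 2522 and 3754 counts in Y-Scr against 3380, 2892 and 3222 in Y-KO. In CPM these were 154.8, 152.6 and 156.8 against 181.5, 180.0 and 182.5. The groups were tight and well apart. The mean went from 155 ± 2.13 to 181 ± 1.27 CPM (SD, n = 3), a log2 fold change of 0.23 ± 0.06 (SE) or 1.17-fold, with an adjusted p of 0.0035 by edgeR's quasi-likelihood test. The median log2 fold change of all tested genes was -0.01.

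Magee1, whose product is known to bind the dystrophin-associated protein dystrobrevin, was barely detected in Y-Scr and was higher in Y-KO. It lies on chromosome X from 105120378 to 105123927, plus strand (ENSMUSG00000031227), and held 2, 2 and 8 counts in Y-Scr against 23, 18 and 12 in Y-KO. The CPM values were 0.127, 0.121 and 0.334 against 1.24, 1.12 and 0.680. The highest Y-Scr library was below the lowest Y-KO library, although both groups were low. The log2 fold change was 2.24 ± 0.57 (SE), a 4.72-fold rise, with an adjusted p of 0.0037 by edgeR's quasi-likelihood test. With 1 library left out, it ranged from 2.02 (without Y-Scr replicate 2) to 2.96 (without Y-Scr replicate 3). Of all tested genes, 56 (0.434%) had a log2 fold change of 2 or higher, a bound close to the value of Magee1 itself.

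The remaining type II members showed little or nothing. Magel2 (ENSMUSG00000056972), an imprinted gene of the region deleted in Prader-Willi syndrome, had 3 counts in 1 Y-KO library and none elsewhere. Maged2, Magee2 and Mageh1 had 0 counts in all 6 libraries. Maged2 and Mageh1, which belong to the widely expressed types, were thus not detected in either group of these cells. Genes on both sides of Maged2 were expressed: Pfkfb1, 162 kb away, stood at 4.48 and 4.61 CPM in Y-Scr and Y-KO, and Gnl3l, 169 kb away, at 88.0 ± 6.20 and 93.9 ± 0.642 CPM (SD, n = 3). Tspyl2, 694 kb from Mageh1, rose from 13.4 to 19.7 CPM, a log2 fold change of 0.55 ± 0.12 with an adjusted p of 0.00091 by edgeR's quasi-likelihood test, while Rragb, 102 kb away on the other side, had 0.21 ± 0.12 and was not called (adjusted p 0.193). Beside Magee2, Uprt, 347 kb away, had a log2 fold change of -0.34 ± 0.13 and was called lower (adjusted p 0.0483 by edgeR), and Pbdc1, 222 kb away, was not called. The summed level of the type II members was 155 ± 2.23 CPM in Y-Scr and 182 ± 1.17 CPM in Y-KO (SD, n = 3), nearly all of it Maged1.

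On a scale per gene length (RPKM, CPM divided by the gene length in kilobases), the order of the detected members differed between the groups below Maged1. Maged1 was at 35.1 to 36.0 RPKM in the Y-Scr libraries and 41.4 to 41.9 RPKM in the Y-KO libraries. In Y-Scr it was followed by Magea8 at 2.69 to 3.68 RPKM and Mageb2 at 1.67 to 3.25 RPKM, whose ranges overlapped, and then by Magee1 at 0.0341 to 0.0941 RPKM, with Magea3 at 0. In Y-KO Maged1 was followed by Magea3 at 0.706 to 1.55 RPKM and then by Magee1 at 0.191 to 0.348, Magea8 at 0.0344 to 0.294 and Mageb2 at 0.103 to 0.195 RPKM, 3 genes whose ranges overlapped. By mean RPKM over all libraries, Maged1 was number 1563 of the 12907 tested genes and Magea8 number 10043.

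The 2 cluster genes that moved in opposite directions are adjacent: Magea3 and Magea8 lie 36.3 kb apart, with no tested gene between them. On the far side of Magea8, Sat1, which encodes the polyamine acetylating enzyme, fell from 363 ± 24.9 to 247 ± 10.2 CPM (SD, n = 3), 217 kb away. Its log2 fold change was -0.56 ± 0.07 (SE) with an adjusted p of 1.6e-06 by edgeR's quasi-likelihood test. Beyond Magea3, the nearest tested gene was Nbdy, 1207 kb away, with a log2 fold change of -0.52 ± 0.15, a call lost (-0.32) after removal of the gene-length trend. Within 1500 kb of the Magea8 start there were 25 protein-coding genes, of which 13 had 0 counts and 7 were tested. The 5 tested genes that are not MAGE genes had log2 fold changes from -0.56 to 0.22, 1 called higher and 3 lower. Over all tested X genes, 40.8% were called, 18.7% higher and 22.0% lower. No tested neighbour in the window came near the size of the Magea8 or Magea3 difference.

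**Figure D3:**
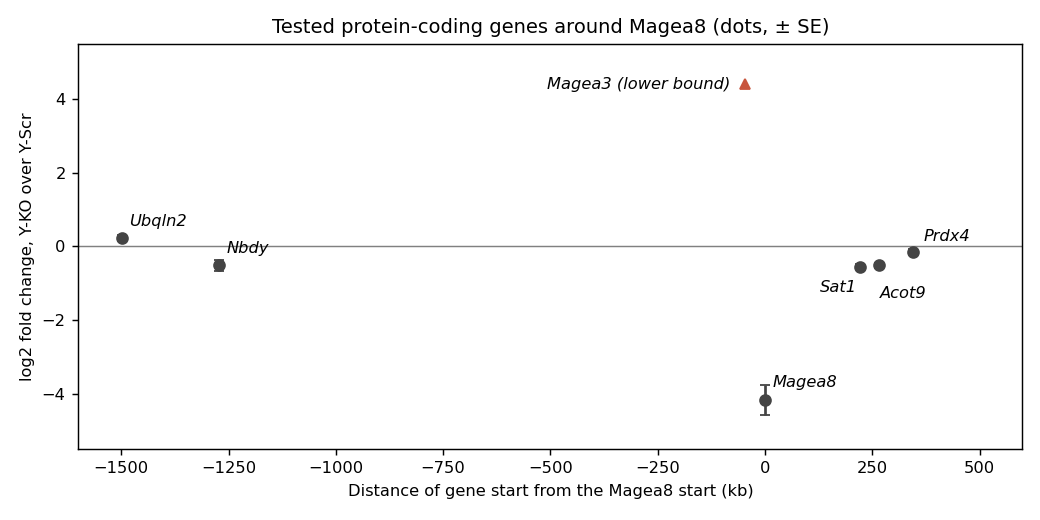
Log2 fold change (Y-KO over Y-Scr) of the 7 tested protein-coding genes within 1500 kb of the Magea8 start, plotted by the distance of each gene start in kb; bars are SE and the triangle is the lower bound of Magea3. Magea8 stands at -4.17 and Magea3 at 4.40 or above, while the 5 other genes lie between -0.56 and 0.22.

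The neighbours of the other members were also less changed. Beside Maged1, Apoo (118 kb) had a log2 fold change of -0.05 ± 0.11 and Zxdb (182 kb) -0.01 ± 0.21, and neither was called. Beside Magee1, Pbdc1, 3.29 kb away, had -0.10 ± 0.08 and was not called, and Atrx, 674 kb away, rose by 0.35 ± 0.08 on the log2 scale. Mageb2 has no tested neighbour close by: Pola1 (1971 kb) rose by 0.29 ± 0.08 on the log2 scale, and Gk (5555 kb) had -0.06 ± 0.10. The X chromosome as a whole was near the background: 161 of its 395 tested genes (40.8%) were called, 74 (18.7%) higher and 87 (22.0%) lower. Its median log2 fold change was -0.01. Of the tested X genes, 2 (0.506%), Magea8 and Mageb2, had a log2 fold change of -4 or lower. Another 3 (0.759%), Magea3 and Magee1 among them, had 2 or higher. The 2 bounds differ in size and lie just short of the values of Magea8, Mageb2 and Magee1 (-4.17, -4.22 and 2.24). These genes and Magea3 also had to differ to be tested, so these shares do not measure rarity.

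Promoter sequences were taken from RefSeq on GRCm38.p6, from 250 bases before to 50 after each annotated start. Of the 21 members, 19 had an entry. Mageb1 and Mageb2 had none. The promoters of Magea8, Magea3 and Maged1 are printed 5′ to 3′ on the minus strand. CG dinucleotides, the sites of DNA methylation, are in capitals. The 3 sequences are shown because they differ in CG content. They lie at chrX:154995801-154996100, chrX:154949520-154949819 and chrX:94541976-94542275.
Magea8: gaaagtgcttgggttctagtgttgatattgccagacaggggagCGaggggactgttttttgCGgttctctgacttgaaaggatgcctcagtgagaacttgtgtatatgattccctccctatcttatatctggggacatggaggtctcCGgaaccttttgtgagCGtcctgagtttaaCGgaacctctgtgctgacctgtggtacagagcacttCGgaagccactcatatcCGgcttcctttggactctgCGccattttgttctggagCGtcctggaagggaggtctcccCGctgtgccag
Magea3: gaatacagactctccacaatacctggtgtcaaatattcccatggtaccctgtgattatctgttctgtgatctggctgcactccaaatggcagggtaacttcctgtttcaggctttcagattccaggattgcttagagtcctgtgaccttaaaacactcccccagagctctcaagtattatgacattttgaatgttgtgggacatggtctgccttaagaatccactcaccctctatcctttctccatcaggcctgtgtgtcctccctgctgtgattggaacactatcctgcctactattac
Maged1: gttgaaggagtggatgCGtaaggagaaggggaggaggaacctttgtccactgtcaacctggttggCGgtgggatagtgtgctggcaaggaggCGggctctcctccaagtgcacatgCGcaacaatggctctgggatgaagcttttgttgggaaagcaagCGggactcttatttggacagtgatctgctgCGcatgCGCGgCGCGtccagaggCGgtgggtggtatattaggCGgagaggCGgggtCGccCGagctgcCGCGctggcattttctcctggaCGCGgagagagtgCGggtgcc
The Magea8 promoter held 10 CG dinucleotides, the Magea3 promoter 0 and the Maged1 promoter 20. The RefSeq start of Magea3 lay 64 bases from the start in the count table, that of Maged1 118 bases and that of Magea8 0 bases. The Magea3 gene in the count table is 963 bases long and its coding sequence 960, so its annotated starts may lie inside the gene. Whether the stretch printed for Magea3 is a promoter was not tested. Over all 32817 RefSeq promoters the median was 7 CG, with quartiles of 3 and 20. The promoters of types a and b held a median of 2 CG (0 to 20, 13 promoters), and those of types d, e, h and l a median of 14 CG (8 to 20, 9 promoters of 6 genes). For 4 of the 13 type a and b promoters the RefSeq start lay far from the start in the count table: 1592 bases for Magea5, 9872 for Magea6, 48874 for Mageb4 and 60374 for Magea2. For Maged2, with 4 promoters, the distances were 0 to 1366 bases. Where a type a or b start lay 0 bases from that in the count table, Magea8 held 10 CG, Magea10 5 and Magea4 2. Likewise Mageb16 held 6, Mageb3 20 and Mageb18 1. The Magea4 gene model is also short, at 948 bases with a coding sequence of 945. How far the CG difference between the classes depends on the annotated starts was not tested. In the RefSeq table, 56.6% of promoters held fewer CG than that of Magea8 and 0% fewer than that of Magea3. Methylation was not measured here.

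**Figure D4:**
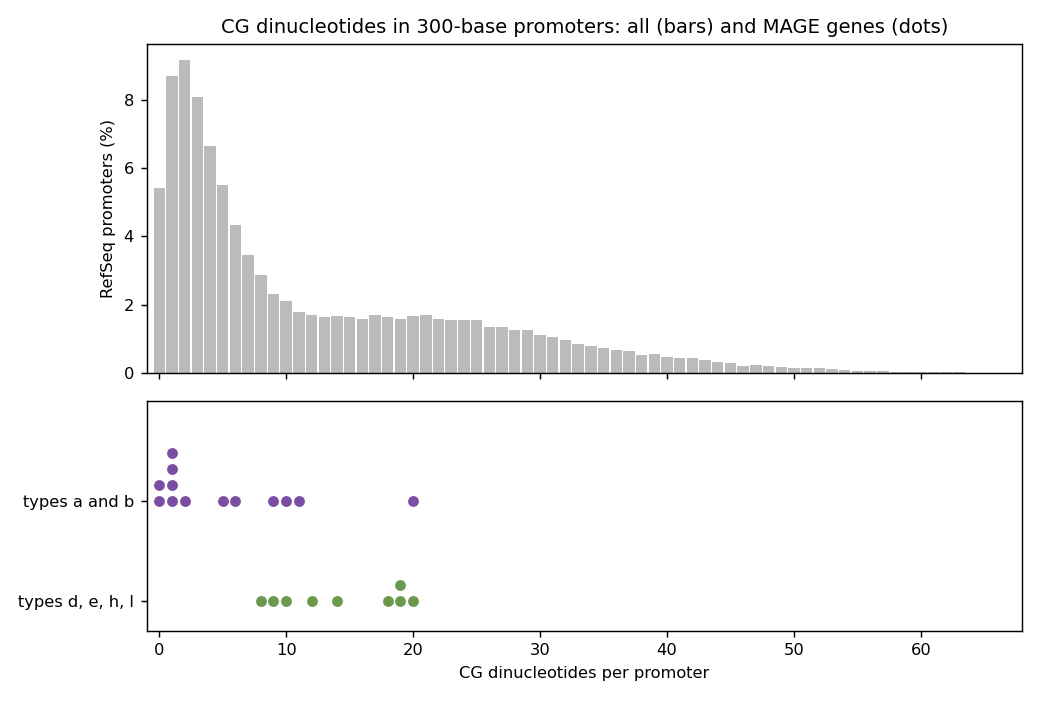
Distribution of CG dinucleotides per 300-base promoter over 32817 RefSeq promoters (bars, percent) and in the MAGE promoters (dots, 1 per promoter). Types a and b lie mostly at the low end with a median of 2, and types d, e, h and l lie between 8 and 20. The annotated starts of some type a and b genes are uncertain.

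Short motifs were searched on both strands of the same promoters. CACGTG, the core E-box, was in 0 of the 19 members and in 7.15% of all promoters. TCCCGC, which is part of the E2F6 motif and of other E2F motifs, was in 5 members (Maged1, Maged2, Magee2, Mageh1 and Magel2), all of type II, and in 19.97% of all promoters. CGGAAG, the core of many ETS motifs, was in 4 members (Magea2, Magea8, Maged2 and Mageh1) and in 16.85% of all promoters. A member counts if any of its promoters holds the motif, while the background shares are per promoter. Maged2, with 4 promoters, counts through the promoter at chrX:150813658-150813957. All these motifs contain CG, and promoters of types a and b held fewer CG (median 2) than those of types d, e, h and l (median 14). A match is a run of letters and no more than that.

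Partners of MAGE proteins, taken from a list of 18 ligases, substrates and complex members, were changed in both directions. Of the 14 tested, 5 were called higher and 3 lower, with a median log2 fold change of 0.12 against -0.01 for all tested genes, of which 43.6% were called (20.7% higher and 23.0% lower). Trim28, which encodes the ligase bound by several type a proteins, rose from 253 ± 14.6 to 345 ± 7.74 CPM (SD, n = 3), a log2 fold change of 0.45 ± 0.06 (SE) with an adjusted p of 1.2e-05 by edgeR's quasi-likelihood test. Usp7, a deubiquitinase that works with Magel2 and Trim27, rose by 0.47 ± 0.07 on the log2 scale. Nsmce1 and Nsmce2, subunits of the SMC5/6 DNA repair complex, fell by 0.34 ± 0.07 and 0.36 ± 0.07 on the log2 scale, and the call of Nsmce1 was lost (-0.12) after removal of the gene-length trend. Nsmce3, the MAGE-type subunit of that complex, was at 30.1 ± 2.79 and 35.2 ± 3.58 CPM with a log2 fold change of 0.22 ± 0.10, which was not called (adjusted p 0.0778 by edgeR's quasi-likelihood test) except without Y-Scr replicate 3. Ndn, the other MAGE-type gene named otherwise, had 0 counts in all libraries.

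Other X-linked cancer-germline genes were mostly silent too. Of 39 listed genes 37 were in the table, 19 had 0 counts and 7 were tested, of which 1 was called higher and 5 lower, with a median log2 fold change of -0.32. Of all tested X genes, 18.7% were called higher and 22.0% lower. Nxf3, an mRNA export factor gene, rose from 2.12 ± 1.16 to 24.2 ± 1.70 CPM (SD, n = 3), a log2 fold change of 3.53 ± 0.24 (SE) with an adjusted p of 8.9e-08 by edgeR's quasi-likelihood test. Rhox5, a homeobox gene of the male reproductive tract, fell by 0.85 ± 0.17 on the log2 scale. The Xlr family genes Xlr3a and Xlr3c fell by 0.46 ± 0.11 and 0.29 ± 0.08. After removal of the gene-length trend of every library, 2 of the 7 were called higher and 2 lower, and Xlr3c had a log2 fold change of -0.08.

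Germline genes whose promoters are known to be held silent by methylation, 24 listed genes of which Pet2 and Prame are also X-linked, stayed low. Of these 14 had 0 counts in all libraries and 1 was tested. That gene, Piwil4, which acts with small RNAs in the male germline, had a log2 fold change of -0.43 ± 0.24 and was not called (adjusted p 0.159 by edgeR's quasi-likelihood test). Tex101, with counts of 2, 6 and 3 in Y-Scr against 21, 12 and 3 in Y-KO, was not tested with all libraries. It entered the test and was called higher only without Y-KO replicate 3, the Y-KO library with its lowest count. Tdrd9, also not tested, went the other way, with counts of 5, 9 and 25 in Y-Scr against 5, 0 and 6 in Y-KO. The other untested genes of the list held fewer counts in total than Tex101 or Tdrd9.

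Of the known regulators of cancer-germline genes, 9 of 15 tested were called higher and 0 lower, with a median log2 fold change of 0.20. With 1 library left out, 7 to 9 were called higher, and the calls of Setdb1 and Hdac2 were lost under several alternatives. Over all tested genes 20.7% were called higher and 23.0% lower. The maintenance methyltransferase gene Dnmt1 rose from 198 ± 21.0 to 317 ± 23.6 CPM (SD, n = 3), a log2 fold change of 0.68 ± 0.08 (SE), and its partner Uhrf1 by 0.63 ± 0.06. The de novo methyltransferase gene Dnmt3a rose from 20.6 ± 2.71 to 38.3 ± 4.78 CPM, by 0.89 ± 0.11 on the log2 scale. L3mbtl2, a member of a repressor complex with E2F6, rose by 0.57 ± 0.08. Adjusted p-values of these 4 were between 1.5e-07 and 2.2e-05 by edgeR's quasi-likelihood test. Removing the length trend gave 1 call in the lower direction, Tet2, a gene for a methylcytosine oxidase. Tet3, another gene of that kind, was called higher in the main fit, with a log2 fold change of 0.51 ± 0.09 (SE). Dnmt3b, another methyltransferase gene, had 0 counts in all libraries.

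In the imprinted domain around Magel2, 4 of 9 genes were tested and 1 was called, while 43.6% of all tested genes were called. Mkrn3, a ligase gene of that domain, was called lower, with a log2 fold change of -0.49 ± 0.17 and an adjusted p of 0.0281 by edgeR's quasi-likelihood test. Its call was lost without Y-Scr replicate 2, Y-KO replicate 2 or Y-KO replicate 3, and after removal of the gene-length trend. Herc2 had 0.58 ± 0.21 and was not called, but it was without Y-Scr replicate 1, where its log2 fold change was 0.83, and under 3 other settings. Atp10a had 0.16 ± 0.09 and Ube3a -0.12 ± 0.08, and Ube3a was called lower without Y-Scr replicate 3 (-0.22) and after removal of the gene-length trend (-0.29).

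**Figure D5:**
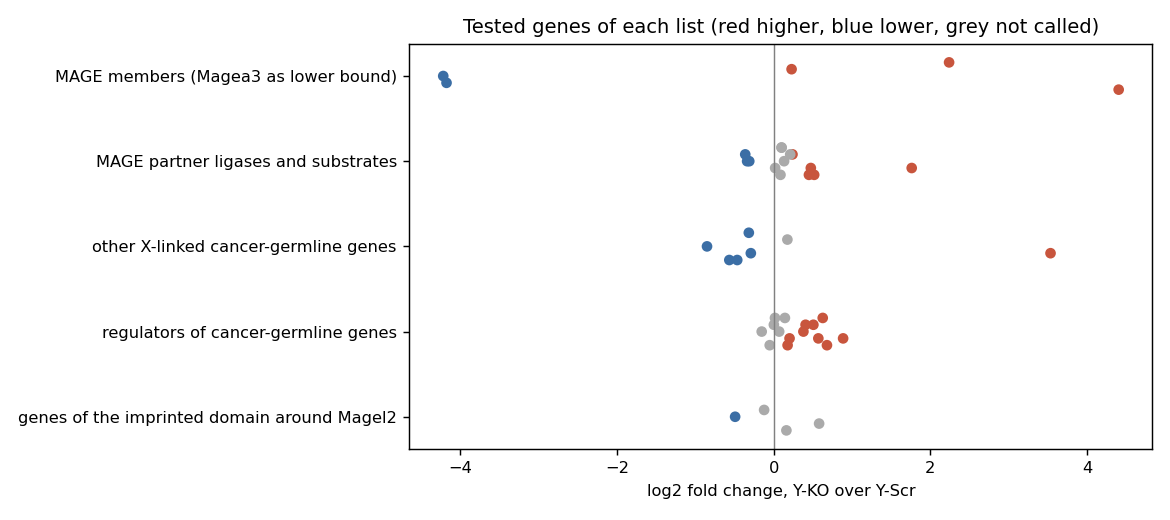
Log2 fold change (Y-KO over Y-Scr) of the tested MAGE members and of the tested genes of 4 lists; red dots were called higher, blue dots lower and grey dots neither. The MAGE members spread from -4.22 to at least 4.40, and Nxf3 at 3.53 is the largest value in the lists.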

How the data were processed

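The authors deposited whole-number read counts per gene for 6 libraries, unnormalized, beside gene lengths and coordinates. The submitters' processing notes list STAR 2.5.2b, featureCounts 1.5.3, Trimmomatic 0.39, DESeq2, FastQC 0.12.1 and MultiQC 1.13, and name the builds mm39 and GRCm39. Of 54409 genes also in an annotation of GRCm38, 53462 (98.3%) had identical coordinates, as had all 21 members, so coordinates are given as GRCm38. How the counting treated strand and multiple matches is not stated there.

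The counts were tested in R 4.3.3 with edgeR 4.0.16 (filterByExpr, TMM scaling, robust quasi-likelihood fit, group as the only term, Benjamini-Hochberg adjustment over 12907 genes, threshold 0.05). SE is the size of the log2 fold change divided by the square root of the F statistic. CPM and RPKM were computed on TMM-scaled library sizes, apart from the CPM worth of 3 counts, which uses raw totals. Folds against 0 counts use a floor of 3 counts over the group and leave out counting error in the other group. Intervals and floors cover counting error only, since PCR copies were not marked. No replicate was a copy of another, since chi-square values per degree of freedom between them were 3.55 to 16.0.

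The members and lists were chosen with earlier results of these data known. Named genes are every member with a count, up to 4 genes per list with the smallest adjusted p, all Y genes, Ndn and Nsmce3, and the nearest tested neighbours. Other genes named in the text (the silent members and their neighbours, markers, Tex101, Tet2, Setdb1, Hdac2, E2f6, Tro, Smc6, Pja1, Washc1, Huwe1, Ngfr and Tex13b) fall outside that rule and were chosen after their values were seen. The same holds for Tet3, Dnmt3b and Tdrd9. Alternatives were RLE and upper-quartile scaling, DESeq2 1.42.0, limma-voom (limma 3.58.1), no filter, protein-coding genes only, a minimum of 1 CPM in 3 libraries, a replicate block, removal of the gene-length trend (spline with 4 degrees of freedom) and each library left out in turn.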

Additional observations from a re-analysis of the deposited data

How the results depend on the processing

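The 5 tested members kept their direction and their call under every alternative that could test them. Magea8, Mageb2, Magea3 and Magee1 had to differ to pass the main filter, so settings that use it could hardly change their direction. Log2 fold changes ranged from -4.83 to -3.69 for Magea8, -4.56 to -4.01 for Mageb2, 0.22 to 0.29 for Maged1 and 2.02 to 2.96 for Magee1, with adjusted p up to 0.0245, and Magea3 had adjusted p up to 0.00054 (edgeR, DESeq2 or limma-voom). Magea3 and Magee1 were too low for the filter of 1 CPM in 3 libraries, which left 0 genes of types a and b and 1 of the broad types called higher. With the replicate block, which the data do not support as a pairing (correlations of same-numbered libraries -0.0642, -0.0344 and -0.0240), 2333 genes were higher and 2627 lower, against 2667 and 2966 without it, and it changed no call described here other than those of the regulators Setdb1 and Hdac2, which also lost them without single libraries. Removing the length trend gave 3357 higher and 2462 lower (57.7% higher against 47.3%). Raw library totals put the summed CPM of the broad types at 151.7 in Y-Scr and 185.9 in Y-KO.

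Among the lists, the other X-linked genes had 2 called higher with upper-quartile scaling and with the length trend removed (Tex13b added), 2 lower with the length trend removed, and 1 to 2 higher with 1 library left out. The regulators had 1 lower with the length trend removed. The Magel2 domain had 1 higher (Herc2) with limma-voom, with no filter and with the length trend removed, and with 1 library left out it had 0 to 1 higher and 0 to 2 lower. The 2 MAGE-type genes named otherwise and the methylation-held germline genes each had 0 to 1 higher with 1 library left out. Among partners, Huwe1 lost its call without Y-Scr replicate 2 and Ngfr without Y-KO replicate 2, and Washc1 gained one without Y-Scr replicate 1. With the length trend removed, 6 partners were higher and 2 lower: Smc6 (0.12) and Nsmce1 lost their calls, and Pja1 and Washc1 gained one. The sign of uncalled neighbours reversed for Gk (-0.14 to 0.052 with 1 library left out, positive without Y-Scr replicate 2), Apoo (0.17 with the length trend removed and -0.11 to 0.038 with 1 library left out, positive without Y-Scr replicate 3) and Zxdb (0.0098 with limma-voom, and -0.12 to 0.15 with 1 library left out, positive without Y-Scr replicate 1 or Y-KO replicate 3). The cause was not tested. Depth limits the 5 members under the filter, which held 2 to 7 counts over all libraries.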

Other observations

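Of the 9 MAGE-named pseudogenes, Mageb7-ps held 4, 2 and 0 counts in the Y-Scr libraries and Mageb8-ps 0, 0 and 1, and neither had a count in Y-KO. The other 7 had 0 counts in all 6 libraries. Tro, an X-linked gene of the MAGE superfamily whose symbol falls outside the name rule, had 7 counts over the Y-Scr libraries and 5 over the Y-KO libraries. E2f6, a repressor of germline genes, held 1 count over all 6 libraries.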
